A study of Mus musculus with 6 samples.

Results

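Border-associated macrophages (BAM) are the resident macrophages of the brain's edges: the meninges, the perivascular spaces and the choroid plexus. Here they were the cells that carried the annotation BAM in the authors' deposited cell table, 506 of 13052 cells in all, next to 9403 cells annotated as microglia and 634 as Ly6CLow, a myeloid class named for low Ly6C. How the authors assigned the annotation is not given in the sources used here. The cells came from whole brains of 24 female C57BL/6 mice, 6 per group: young mice of 12 weeks or aged mice of 72 weeks, given either vehicle, with an unperturbed gut microbiota, or antibiotics (ABX), with a depleted one. Mice were perfused, each brain was dissociated with papain, enriched for mononuclear cells on Percoll and stained individually, and the 24 suspensions were merged into 12 pools of 3 per group. RNA and antibody tags were read from the same cells (CITE-seq, in which antibodies carry a DNA barcode that is sequenced with the transcripts).

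BAM share the CSF1-dependent macrophage programme of microglia but lie outside the parenchyma, in contact with blood vessels and cerebrospinal fluid. They are known for the mannose receptor Mrc1 (CD206), the haemoglobin scavenger receptor Cd163 and the hyaluronan receptor Lyve1. They also fall into MHC class II high and MHC class II low populations, of which the first is in part replaced from blood monocytes that carry the chemokine receptor Ccr2.

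All young pools were loaded in one 10x well and all aged pools in the other, so age and well cannot be told apart in any comparison below. Hashtags 1 to 3 marked control pools and 4 to 6 antibiotic pools in both wells, so hashtag and arm cannot be told apart either. Each group holds 3263 cells in the deposited table, and how those were chosen is not given in the sources used here. BAM had a median of 6735 to 8221 raw RNA molecules (UMIs) per cell in the 12 pools. Tags were far fewer in the aged well, with pool medians of 492.5 to 612 tags per BAM against 3058 to 3878 in the young well. In all, 59 barcode sequences occurred in both wells and 1 of them was carried by a BAM. RNA values below are the authors' corrected values per cell, averaged over the BAM of a pool, and tags are raw counts per cell.

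The surface of the BAM was read through 15-base antibody barcodes, taken from the authors' deposited barcode list. Of the 6 shown, 4 had the largest fitted log2 differences among the antibodies called between the BAM populations below (I-A/I-E, CD38, CD11c and CD44). The other 2 are macrophage antigens that also differed (F4/80 and CD86). The whole barcode is in capitals.
I-A/I-E (MHC class II): GGTCACCAGTATGAT
CD11c: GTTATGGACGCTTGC
CD44: TGGCTTCAGGTCCTA
CD38: CGTATCCGTCTCCTA
F4/80: TTAACTTCAGCCCGT
CD86: CTGGATTTGTGTATC

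The labelled cells carried the known BAM markers. The annotation may itself rest on these genes, so this is a description and no independent check of it. Mrc1 had a value above 0 in 100% of BAM, in 2.34% of microglia and in 32.2% of Ly6CLow cells. The chemokine gene Pf4 was above 0 in 75.9% of BAM, Ms4a7 in 75.7%, the transglutaminase F13a1 in 64.6%, Cd163 in 45.5% and Lyve1 in 15.0%. For these 5 genes the share of microglia was between 0.117% (Lyve1) and 1.14% (Pf4). In CD8+ T cells, of similar depth (a median of 7096.5 raw UMIs against 7610.5 in BAM), the shares were 3.57% for Mrc1 and 1.51% for Pf4. Mrc1 was thus the only one of the 6 markers detected in every BAM.

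The 6 markers varied among the 12 pools. Pool means ran from 3.12 to 7.85 for Mrc1, from 4.53 to 13.1 for Pf4 and from 2.35 to 4.67 for F13a1. Cd163 ran from 1.23 to 3.93 and Ms4a7 from 1.71 to 4.70. Lyve1 was the most uneven, from 0.294 to 2.07. The lowest pool means of Mrc1, Pf4, Lyve1, F13a1 and Ms4a7 were all in young control pool 2, which held 17 BAM, the fewest of any pool.

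**Figure D1:**
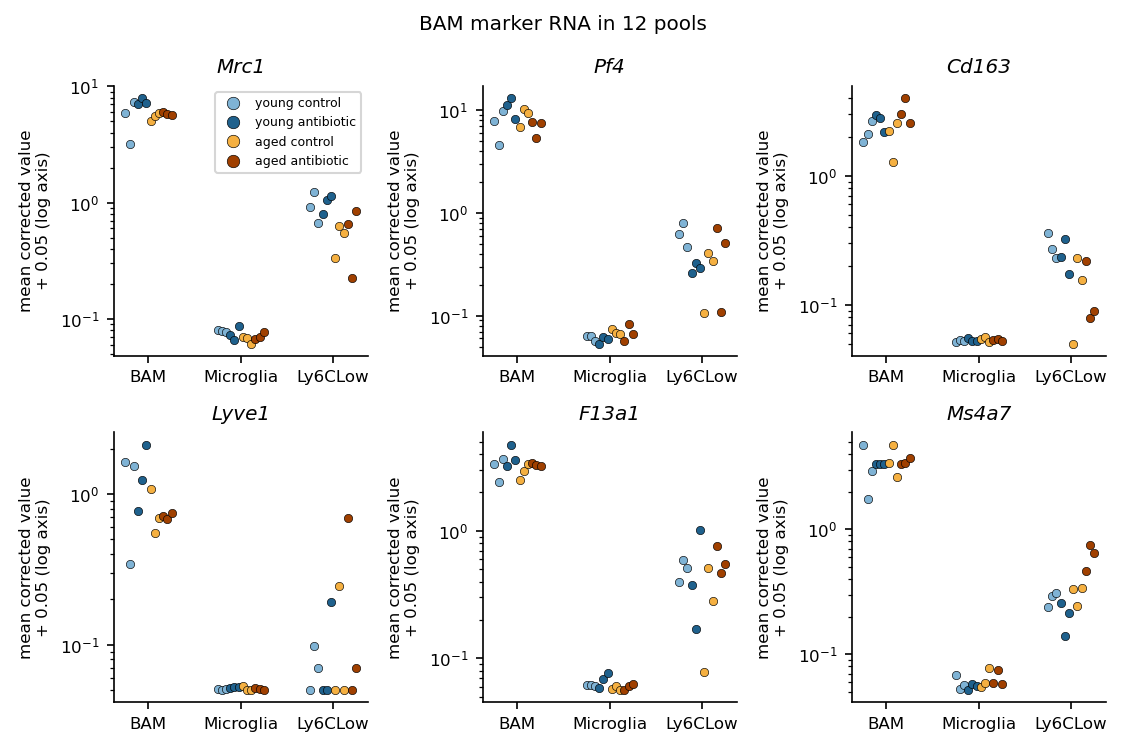
Each panel shows 1 marker; points are the 12 pools (mean corrected value of the cells of that type plus 0.05, log axis) for BAM, microglia and Ly6CLow cells, coloured by group. All BAM pools lie above all microglia pools for the 6 markers; the BAM means of Mrc1 run from 3.12 to 7.85, and Lyve1 spreads most widely, from 0.294 to 2.07.

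BAM made up 3.32% ± 1.26 (SD, n = 3 pools) of the cells of young control pools and 3.99% ± 0.554 of young antibiotic pools. In aged mice the mean was 4.22% ± 0.428 for control pools and 4.00% ± 1.1 for pools of the antibiotic arm (n = 3 each). The single pools ranged from 2.24% to 5.25% and the groups overlapped. In edgeR's quasi-likelihood test on the cell numbers of all types, the log2 difference of BAM between aged and young was 0.34 in controls (SE 0.40, edgeR adjusted p = 0.541) and 0.00 with antibiotics (edgeR adjusted p = 0.993). For antibiotics against control it was 0.25 in young (edgeR adjusted p = 0.736) and -0.08 in aged mice (edgeR adjusted p = 0.842), also by edgeR. Exact two-sided permutation tests of the pool shares gave p = 0.4 and 1 for age and p = 0.5 and 0.7 for antibiotics, in the same order; 3 pools against 3 cannot go below 0.1. Among cells other than microglia the age difference had the opposite sign, -0.163 in controls and -0.742 with antibiotics, with edgeR adjusted p of 0.923 and 0.219. No difference in the share of BAM was detectable with pools that varied this much.

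BAM were not one population. In the authors' RNA clustering at resolution 0.1, 324 BAM lay in cluster 3 and 149 in cluster 8, with 19 in cluster 1, 12 in cluster 0 and 2 in cluster 5. The clusters were built on the same RNA values, so their RNA is described here and not tested. Cluster 3 BAM carried the MHC class II genes: the mean over pools of H2-Eb1 was 72.9 against 1.59 in cluster 8, that of H2-Aa 66.6 against 2.04, that of H2-Ab1 71.2 against 1.98 and that of Cd74, the invariant chain, 190 against 5.76. The peptide loading gene H2-DMb1 (5.2 against 0.561) and Ccr2 (2.11 against 0.059) were higher in cluster 3 as well. In cluster 8 BAM, Lyve1 was 2.97 against 0.102 in cluster 3, the eotaxin gene Ccl24 4.75 against 0.344, the folate receptor gene Folr2 2.06 against 0.216 and the iron exporter gene Slc40a1 1.07 against 0.128. Each of these 10 genes differed in the same direction in all 12 pools.

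The BAM programme itself was present in both clusters, at higher levels in cluster 8. Mean values in cluster 3 and cluster 8 were 4.48 and 10.0 for Mrc1, 5.59 and 15.7 for Pf4, 2.07 and 6.13 for F13a1, and 1.42 and 5.2 for Cd163. Ms4a7 (3.14 and 4.19) and the apolipoprotein gene Apoe (275 and 301) were closer. The summed level of the 6 markers ran from 6.70 to 21.3 over pools in cluster 3 and from 34.0 to 55.9 in cluster 8, without overlap. Cluster 3 was not made of BAM alone: it also held 316 cells annotated as Ly6CLow, 31 as microglia and 30 as Ly6CHigh, whereas cluster 8 held 25 microglia, 8 Ly6CLow and 3 Ly6CHigh cells beside its BAM.

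Cells of cluster 8 were 29.4% to 47.4% of the BAM in the young control pools and 22.2% to 48.5% in the young antibiotic pools. In the aged pools they were 20% to 24.3% (control) and 18.2% to 20.5% (antibiotic). In cells, clusters 3 and 8 held 63 and 44 BAM in young control, 69 and 48 in young antibiotic, 97 and 32 in aged control and 95 and 25 in aged antibiotic mice. The young and aged pools overlapped only at young antibiotic pool 4, and since the clusters were built on genes that differ between the wells, the shares were not tested.

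**Figure D2:**
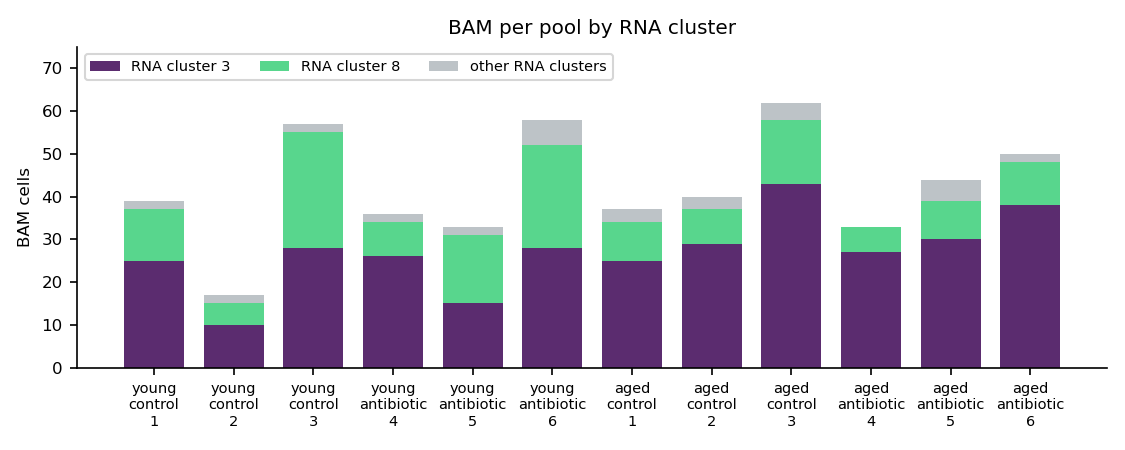
Stacked bars give the number of BAM of each of the 12 pools in RNA cluster 3, RNA cluster 8 and the other RNA clusters. Cluster 3 is the largest class in most pools, young control pool 2 has the fewest BAM (17), and the cluster 8 part is smaller in the aged pools, 18.2% to 24.3% of their BAM.

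The 2 MHC class II genes for which RefSeq promoter sequence was at hand are shown, since their transcripts are among those far apart between the clusters. MHC class II promoters are known to carry a Y box, a CCAAT element bound by NF-Y, upstream of their start. Shown are the 150 bases before each annotated start (build GRCm38.p6, 5′ to 3′ on the gene's strand), with CCAAT or its reverse complement ATTGG in capitals.
H2-Aa, chr17:34287824-34287973, minus strand: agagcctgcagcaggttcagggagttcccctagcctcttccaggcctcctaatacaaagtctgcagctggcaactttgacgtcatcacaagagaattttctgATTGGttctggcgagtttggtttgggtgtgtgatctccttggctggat
H2-Eb1, chr17:34305717-34305866, plus strand: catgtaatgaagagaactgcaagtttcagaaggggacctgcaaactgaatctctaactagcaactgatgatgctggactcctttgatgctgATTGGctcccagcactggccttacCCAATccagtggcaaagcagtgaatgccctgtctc
H2-Aa had 1 match, which began 48 bases before the start, and H2-Eb1 had 2, at 59 and 35 bases. Of the 32851 promoters of the same length in the table, 24.5% held the motif on either strand, so a match by itself is common and is a description only.

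Antibody tags were not used to build the RNA clusters, and they separated the same cells. In edgeR's quasi-likelihood test on tags summed per pool and cluster, with the pool as block, 10 of 34 antibodies (29.4%) differed between cluster 3 and cluster 8 at an adjusted p of 0.05; 3 were higher and 7 lower in cluster 3. The choice of these clusters was made after the data had been seen. I-A/I-E, the MHC class II antibody, gave 2431, 2419, 2503, 3185, 3751 and 2542 tags per cell in cluster 3 of the young pools. In cluster 8 of the same pools it gave 30.25, 14.4, 90.9, 124, 287.6 and 71.7. In the aged pools, at lower tag depth, cluster 3 gave 494, 550, 467, 468, 424 and 547 tags per cell and cluster 8 gave 15.9, 7.25, 18.6, 160, 28.6 and 39. Within each well every cluster 3 pool was above every cluster 8 pool, with aged antibiotic pool 4 the closest pair. The fitted difference over all 12 pools was 4.81 on the log2 scale (SE 0.53, edgeR adjusted p = 1.07e-05).

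The difference in MHC class II protein was also plain cell by cell. In the young well the quartiles of I-A/I-E tags were 1276, 2177 and 3425 in 132 cells of cluster 3, and 13.8, 21 and 50.5 in 92 cells of cluster 8. In the aged well, at lower tag depth, they were 195, 374 and 660 in 192 cells and 4, 6 and 15 in 57 cells. I-A/I-E took up a median of 56.1% of all tags of a cluster 3 BAM in the young well and 63.5% in the aged well, against 0.810% and 1.93% in cluster 8.

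Of the other antibodies, CD11c and CD44 went with I-A/I-E. CD11c, an integrin of dendritic cells and some macrophages, had a median of 18.2 tags per cell over the 6 young pools in cluster 3 and 3.68 in cluster 8 (log2 1.94, edgeR adjusted p = 1.37e-05). CD44, a hyaluronan receptor high on recruited leukocytes, had 49.5 and 19.2 (log2 1.35, edgeR adjusted p = 0.000167). CD38, an NAD-degrading ectoenzyme, went the other way: 151 tags in cluster 3 and 758 in cluster 8 (log2 -2.37, edgeR adjusted p = 0.000167). In cluster 3 it ranged from 7.80 tags in young control pool 2 to 257 in young antibiotic pool 4, whereas all young pools of cluster 8 had 553 or more.

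The macrophage antigens F4/80 (23.2 tags in cluster 3 and 40.4 in cluster 8), CX3CR1 (84.6 and 135.5), CD64, the Fc receptor (6.42 and 11.6), and CD86, a costimulatory ligand (43.3 and 89.1), were all lower in cluster 3, as were CD172a and NK1.1. The fitted differences of these 6 lay between -0.65 and -0.25, with edgeR adjusted p from 0.000286 to 0.032. Because I-A/I-E made up most of the tags of cluster 3, the size of these smaller differences depended on the scaling: with no composition factor 28 of 34 antibodies passed the test instead of 10. With the 31 antibodies of the study's panel alone, 10 passed as well, and limma on the centred log ratio called 8.

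RNA and tag did not always move together. Ccr2 RNA was 2.11 in cluster 3 and 0.059 in cluster 8, yet the CCR2 antibody gave 2.25 and 1.96 tags per cell, a difference that did not pass the test; CCR2 tags in BAM (a pool median of 2.12 in the young well) were close to those of microglia (1.66), whose Ccr2 RNA was 0.0362. Cx3cr1 RNA was nearly level (7.67 and 8.04), with the tag lower in cluster 3. For CD38, RNA (0.340 and 1.68) and tag differed in the same direction.

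**Figure D3:**
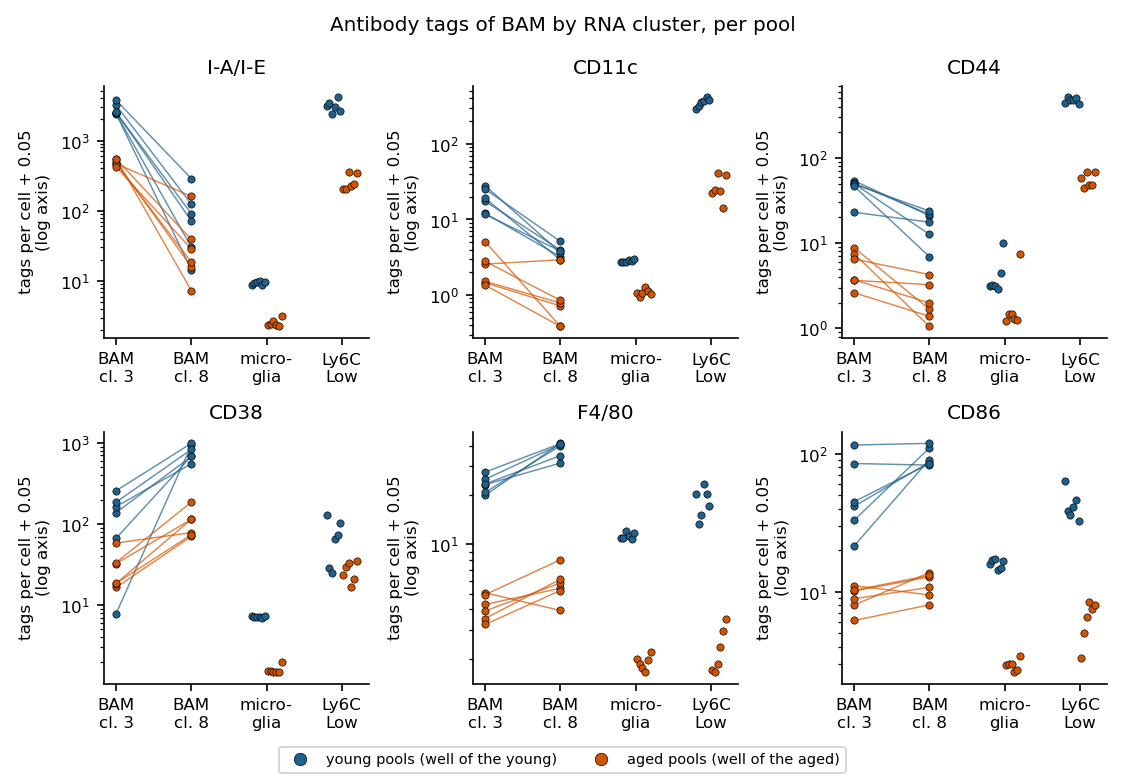
Each panel shows 1 antibody; points are the 12 pools (tags per cell, log axis) for BAM of RNA cluster 3, BAM of RNA cluster 8, microglia and Ly6CLow cells, with young pools in blue and aged pools in orange. I-A/I-E is high in cluster 3 and in Ly6CLow cells and low in cluster 8 and microglia, and CD38 is highest in cluster 8. The aged pools, from a well with fewer tags per cell, mostly lie lower, with some overlap. In cluster 8, I-A/I-E is 160 in aged antibiotic pool 4 and 14.4 in young control pool 2.

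Against microglia of the same pools, the largest RNA differences of BAM were in MHC class II genes. This is a description, since the annotation may rest on the same genes. The largest differences were H2-Eb1 (48.3 in BAM and 0.135 in microglia, 8.01 on the log2 scale of the value plus 0.05), H2-Aa (7.91), H2-Ab1 (7.26) and Cd74 (7.16). Pf4 (7.01), Mrc1 (6.35), Ms4a7 (5.77), F13a1 (5.72), the neutrophil attractant Cxcl2 (18.9 and 0.366, 5.55) and Cd163 (5.51) followed. All were higher in BAM in 12 of 12 pools. At the other end stood the globin genes Hbb-bt (-3.15) and Hba-a1 (-2.69), Ecscr (-2.88), Gem (-2.56), the fatty acid receptor Gpr84 (-2.56) and Sparc (2.85 in BAM and 14.6 in microglia, -2.56). Of 9391 genes, 161 (1.71%) were at least 2-fold higher in BAM in every pool and 46 (0.49%) at least 2-fold lower.

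Apoe was 273 in BAM and 10.7 in microglia. Other transcripts abundant in microglia were lower in BAM: the cathepsin gene Ctss (22.9 and 34.7) and Fcrls (4.97 and 8.09). P2ry12, the purinergic receptor used to define microglia, was above 0 in 61.5% of BAM and in 99.5% of microglia. In CD8+ cells the share was 14.7%. Summed over the 6 microglia markers, BAM had 10.9 to 38.1 per pool, microglia 84.3 to 104 and Ly6CLow cells 4.24 to 10.7.

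By antibody, 5 of 34 (14.7%) were at least 2-fold higher in BAM than in microglia in every pool, and 0 (0.0%) lower. I-A/I-E gave 1614 tags per BAM and 9.52 per microglial cell (median of the young pools; log2 7.32 over all pools). CD38 gave 384 and 7.14 (5.42), CD86 64.6 and 16.3 (1.87), CD169, a sialic acid receptor of tissue macrophages, 8.12 and 2.18 (1.79), and F4/80 27.7 and 11.0 (1.28). When tags were instead expressed as a share of all tags of the cell type, only I-A/I-E (5.67) and CD38 (3.78) kept a 2-fold lead, CD86 (0.22) and CD169 (0.19) were near level and F4/80 changed sign (-0.37), as did CD11c, CD24 and every antibody with a positive difference smaller than that of F4/80. CD45, lower on microglia, differed by 1.20 per cell (204 and 81.8 tags) and by -0.46 as a share. CX3CR1 was lower on BAM per cell in all 12 pools (103 and 123 tags, log2 -0.39). CD11b (702 and 656), Ly6C (226 and 220) and CD64 (8.75 and 6.26) were close. CD172a was higher on BAM per cell in all 12 pools (70.8 and 46.5 tags, log2 0.57) and lower as a share (-1.09).

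The antibody to TMEM119, a microglial protein, gave 2.23 tags per BAM and 1.94 per microglial cell in the young well. CD90.1, an allele that C57BL/6 mice are not known to carry, gave 0.600 tags on both types. The TMEM119 tag, low on both types, therefore did not separate BAM from microglia in these data. The RNA of another microglial gene, P2ry12, was detected in fewer BAM than microglia, though in most BAM, and the annotation may rest on such genes.

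Ly6CLow cells also carried MHC class II transcripts, and the summed level of the 6 monocyte markers was higher in them (9.76 to 16.4 per pool against 2 to 5.53 in BAM). Pf4 (8.48 and 0.364, log2 4.55), the adhesion molecule Vcam1 (4.39), the monocyte chemoattractants Ccl12 (11.7 and 0.761, 4.15) and Ccl7 (3.83), the growth factor Gas6 (3.92), Cd163 (3.79) and the scavenger receptor Stab1 (3.92 and 0.260, 3.75) were higher in BAM in all 12 pools, as were Ccl24, Ccl8 and Cbr2. Plac8 (-5.30), Ccl5 (-4.97), the ribonuclease Ear2 (-4.95), Bhlhe40 (-4.59), S100a4 (-4.54) and Klrd1 (-4.39) were lower. H2-Aa was 44.2 in BAM and 50.5 in Ly6CLow cells. Of 9528 genes, 84 (0.882%) were at least 2-fold higher in BAM in every pool and 102 (1.07%) at least 2-fold lower. Among the antibodies, 0 of 34 (0.0%) were 2-fold higher per cell in every pool and 4 (11.8%) lower. These were CD11c (12.3 and 367 tags in the young well, log2 -4.28), CD44 (36.6 and 482, -3.72), CD45 (204 and 962, -2.19) and NK1.1 (-1.31). As a share of all tags of the cell type, the 4 differed by -3.62, -3.05, -1.51 and -0.63. CD38 (1.88), CD64 (1.12), CX3CR1 (0.83) and F4/80 (0.83) were higher on average per cell (2.57, 1.85, 1.51 and 1.52 as a share). I-A/I-E averaged -0.18 per cell but ranged from -1.24 to 1.00 and was higher on BAM in 5 of 12 pools. Its median in the young pools was 1614 tags per BAM and 3084 per Ly6CLow cell. In the aged pools it was 372 and 233.

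Age was then compared within the BAM. limma was run on log2 of the pool mean plus 0.05 for the 8942 genes with a mean of at least 0.05, with Benjamini-Hochberg adjustment over all of them. Over both arms 13 genes (0.145%) differed between aged and young pools, 4 (0.0447%) in controls alone and 7 (0.0783%) with antibiotics alone. The 3 comparisons share pools and are not independent. As well and age are one, all of the differences below may be either. Called genes were named where their pools did not overlap between the groups, so a lack of overlap in a named gene is part of its choice and only describes it.

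Cxcl13, the chemokine that draws B cells through CXCR5, was the gene with the largest change. It was listed at 0 in all 6 young pools, at 1.92, 4.35 and 0.145 in the aged control pools and at 11.0, 3.82 and 4.02 in the aged antibiotic pools. It came from few cells: 35 of 266 aged BAM were above 0 (13.2%, exact 95% interval 9.34% to 17.8%), 33 of them in cluster 3, against 0 of 240 young BAM. A count of 0 allows a share of cells with a value above 0 of up to 1.25% (3 cells of 240), and sets no limit on cells that express the gene. In aged microglia 1.26% of cells were above 0 and in aged CD8+ cells 0.804%, with median depths of 7118 and 6927.5 raw UMIs against 7412 in aged BAM. The fitted difference was 4.57 in controls (SE 0.64, limma adjusted p = 0.000983), 6.80 with antibiotics (limma adjusted p = 1.31e-06) and 5.69 over both arms (limma adjusted p = 4.23e-08). These sizes depend on the pseudocount, because young pools are at 0. Intervals and limits of cell shares cover counting error only.

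Ednrb, the endothelin B receptor, went the other way. It was 0.256, 1.06 and 0.491 in young control, 0.333, 0.455 and 0.328 in young antibiotic, 0, 0 and 0.0323 in aged control and 0.0606, 0.0909 and 0.02 in aged antibiotic pools, with no overlap between ages. The log2 difference over both arms was -2.64 (SE 0.30, limma adjusted p = 2.63e-05). Ednrb belonged to cluster 8, where 50 of 92 young BAM (54.3%, exact 95% interval 43.6% to 64.8%) and 6 of 57 aged BAM (10.5%, 3.96% to 21.5%) were above 0; in microglia the shares were 0.813% and 0.551%. Within cluster 8 alone the pools read 0.833, 3.20, 1.04, 1.00, 0.812 and 0.750 in young and 0, 0, 0.0667, 0.167, 0.444 and 0.1 in aged mice (log2 -3.15, SE 0.47, limma adjusted p = 0.000541), so the difference was as large within cluster 8 as in all BAM.

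Vcam1, an adhesion molecule that binds integrin α4, was 1.90, 0.824 and 1.39 in young control pools against 2.30, 3.10 and 3.23 in aged control pools. With antibiotics it was 2.00, 2.33 and 2.91 in young and 4.67, 4.8 and 4.44 in aged pools. The ages did not overlap within either arm (log2 1.02, SE 0.16, limma adjusted p = 0.00221). It was also higher with age within cluster 3 (1.83, limma adjusted p = 0.00191) and within cluster 8 (1.09, limma adjusted p = 0.0269), both by limma. Microglia had far less Vcam1, 0.0702 to 0.114 in young and 0.233 to 0.374 in aged pools, again without overlap.

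Fgl2, a fibrinogen-like immunomodulator, rose by 0.97 (limma adjusted p = 0.00629): it was 0.412 to 0.744 in the young and 0.973 to 1.44 in the aged pools. S100a9 (-1.57, limma adjusted p = 0.000278) and S100a8 (-1.47, limma adjusted p = 0.00191) fell in the same limma fit. S100a9 ran from 0.647 to 1.14 in young and from 0.161 to 0.455 in aged pools. Both are neutrophil calprotectin genes, and the summed level of the 6 neutrophil markers in BAM fell with them, from 1.35 to 2.24 in young pools to 0.435 to 0.705 in aged ones. Microglia of the same pools also read lower (S100a9 1.1 to 9.55 in young, 0.321 to 1.63 in aged); the part of free neutrophil RNA in the result was not tested.

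The scavenger receptor gene Colec12 fell (0.256 to 0.545 in young and 0.0606 to 0.242 in aged pools, log2 -1.27, limma adjusted p = 0.0254) and Lgals3bp rose (0.74, limma adjusted p = 0.0422). Gm21188 (1.57), the interferon-inducible transcript AW112010 (0.89) and the interferon-inducible GTPase Iigp1 (1.62) were higher as well, with limma adjusted p from 0.0154 to 0.0207. Igfbp7 was lower (-2.88), and 3 cells held 40.2% of all Igfbp7 in BAM. Colec12, Lgals3bp, Gm21188, AW112010, Iigp1 and Igfbp7 each lost the call when single pools were left out, whereas Cxcl13, Ednrb, Vcam1, Fgl2, S100a8 and S100a9 kept it in all 12 such fits.

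Ccr2 fell with age and is a gene of cluster 3. In all BAM it was 2.33, 3.06 and 2.26 in young control against 0.270, 0.850 and 0.887 in aged control pools (log2 -2.0, SE 0.34, limma adjusted p = 0.0115). With antibiotics the pools overlapped (1.89, 0.909 and 1.09 against 1.27, 0.568 and 0.720), and the difference did not pass the test (limma adjusted p = 0.68). Over both arms it was -1.29 (limma adjusted p = 0.0156), a call lost, among the fits that left out 1 pool, only without aged antibiotic pool 5. Ccr2 RNA in Ly6CLow cells also read lower in the aged well, 3.36 to 4.67 in young and 1.71 to 2.60 in aged pools.

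**Figure D4:**
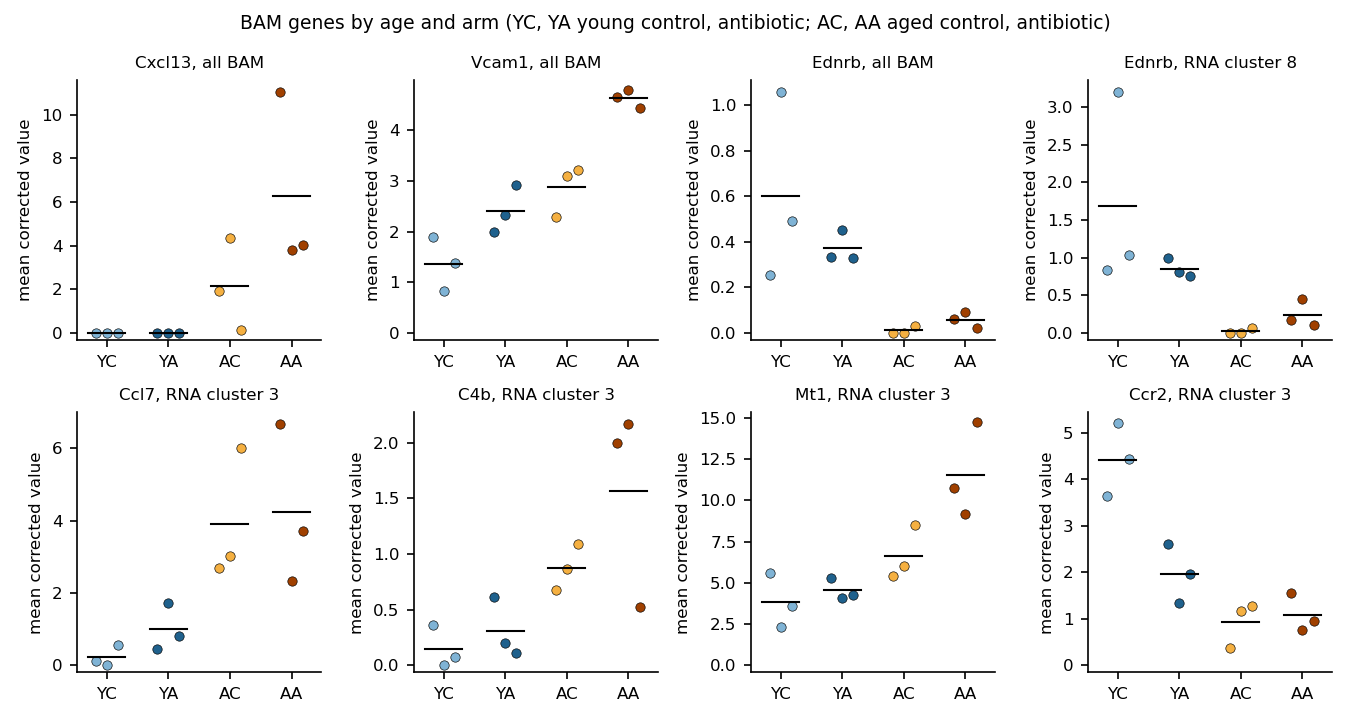
Each panel shows 1 gene in all BAM or in the BAM of 1 RNA cluster, as named above it; points are pools (mean corrected value, linear axis) by group and lines are group means. Cxcl13 is at 0 in all young pools and 0.145 to 11.0 in aged ones, Ednrb is near 0 in aged pools, and Ccl7, C4b, Mt1 and Ccr2 are shown within cluster 3.

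Within cluster 3 the same fit was made on its 10 to 43 BAM per pool and 8537 genes, as an alternative added after the data had been seen. It called 22 genes (0.258%) over both arms, 17 higher and 5 lower with age, 11 (0.129%) in controls and 2 (0.0234%) with antibiotics. Since clusters were built from the same RNA values, which cells lie in cluster 3 can itself move with these genes.

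Ccl7, a ligand of CCR2, was 0.120, 0 and 0.571 in young control and 0.462, 1.73 and 0.821 in young antibiotic pools. In aged control pools it was 2.68, 3.03 and 6.02, and in aged antibiotic pools 6.67, 2.33 and 3.71. No aged pool overlapped a young one, and the log2 difference was 3.25 (SE 0.37, limma adjusted p = 2.66e-06). In all BAM the difference was 0.50 and did not pass the test (limma adjusted p = 0.776). Ccl7 was higher per cell in cluster 8 (mean over pools 10.7 against 2.35 in cluster 3). The share of cells above 0 was 11.4% in young and 25% in aged cluster 3 BAM, against 1.61% and 3.42% in microglia.

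Ccr2, the receptor, was 3.64, 5.2 and 4.43 in young control and 2.62, 1.33 and 1.96 in young antibiotic pools of cluster 3. The aged pools read 0.360, 1.17 and 1.28 (control) and 1.56, 0.767 and 0.947 (antibiotic). The log2 difference over both arms was -1.59 (SE 0.23, limma adjusted p = 0.000267). The share of cluster 3 BAM with a value above 0 was 62.1% in young and 26.6% in aged mice.

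C4b, the complement component, was 0 to 0.615 in young and 0.526 to 2.17 in aged pools of cluster 3 (log2 2.48, limma adjusted p = 0.000727). The metallothionein gene Mt1 was 2.30 to 5.60 in young and 5.40 to 14.7 in aged pools (1.08, limma adjusted p = 0.000766). Cxcl13 (6.01, limma adjusted p = 1.72e-10) and Vcam1 (1.83, limma adjusted p = 0.00191) passed here too. All 4 come from the limma fit of cluster 3. Ccl7, Ccr2, Cxcl13 and Mt1 kept their calls over both arms in every alternative run on cluster 3, and C4b and Vcam1 lost theirs only at a pseudocount of 0.01. The immunoglobulin gene Igkc was also called in cluster 3 (2.38), but it was 0.0788 to 0.151 in young and 0.808 to 1.02 in aged microglia too.

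The other genes called over both arms in cluster 3 were Ccl8 (3.07), Stab1 (0.84), Ly6e (0.61), the transcription factor gene Jdp2 (1.19), Cd63 (0.64), Ier3 (0.73), Adam33, Sdc4, Fosl2, Cebpb and Iigp1, all higher in aged mice, and S100a8, S100a9, Phlda1 (-1.63) and Hpgd (-0.70), all lower. Every one of these 15 lost its call in some of the 12 fits that left out 1 pool. In controls alone, Adam33 (2.43, limma adjusted p = 0.000572) kept its call in all of them. Gas6 (1.5), Igf1 (2.31), Stab1 (1.22) and Dst (1.63) were called in controls in the same limma fit, and lost it without some of the pools.

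Cluster 8 held 5 to 27 BAM per pool, which limits what could be seen. Of 8984 genes, 3 (0.0334%) differed between ages over both arms: Ednrb, Vcam1 and the lectin gene Mgl2, which was 0.875 to 3.00 in young and 0.167 to 1.00 in aged pools (log2 -2.13, limma adjusted p = 0.0061). In controls alone 1 gene (0.0111%), Ednrb, passed (log2 -4.46, limma adjusted p = 0.000512), and with antibiotics alone 3 (0.0334%).

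None of the 6 BAM markers was called for age. Their log2 differences over both arms lay between -0.59 (Lyve1) and 0.16 (Ms4a7), with limma adjusted p of 0.613 or more. Of the 30 genes of the BAM core list, 1 (Colec12) was called lower and the median was -0.05. Over all genes tested the median was -0.07 and 0.145% were called. The 11 MHC class II genes that passed the filter gave 10 positive differences and a median of 0.33, with none called; H2-Eb1 was 0.50 (limma adjusted p = 0.154) and H2-Aa 0.45 (limma adjusted p = 0.164). Within cluster 3 the median of the same 11 was -0.02, with 5 positive, beside 0.07 over all genes. Within cluster 8 it was 0.64, with 8 positive, beside -0.20 over all genes. The part of the larger cluster 3 share of the aged pools in the difference of all BAM was not tested.

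The MHC class I presentation genes had positive differences in both clusters, although no single gene passed the test. All 14 listed genes had a positive log2 difference over both arms in all BAM, with a median of 0.41, beside -0.07 and 39.7% positive over all 8942 genes. Within cluster 3 it was 12 of 14 with a median of 0.38, and within cluster 8 12 of 14 with 0.35. Over the same 8942 genes, 57.7% were positive in cluster 3 (median 0.07) and 33.9% in cluster 8 (median -0.20). H2-K1, a class I heavy chain, was 5.29 to 11.0 in young and 8.98 to 12.8 in aged pools (0.52, limma adjusted p = 0.154), and H2-D1 differed by 0.41 and B2m by 0.33. Of the 27 interferon response genes, 23 were positive in all BAM (median 0.26) and 20 in cluster 3 (0.18), none of them called. These counts are descriptions, with no test of the list.

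Antibiotics against control in young BAM gave 2 called genes (0.0224%), Dcn (log2 4.97) and Ptgds (2.68, limma adjusted p = 0.0219). Dcn, a fibroblast proteoglycan, was 0, 0.0588 and 0.0175 in control and 4.94, 4.03 and 0.5 in antibiotic pools, and 3 cells held 91.6% of all Dcn in BAM. The summed fibroblast markers in BAM were 0.948 to 5.94 in the young antibiotic pools and at most 0.850 in any other pool. Ptgds, the prostaglandin D2 synthase, was 0.0513, 0 and 0.228 in control and 0.667, 1.06 and 0.414 in antibiotic pools. Both calls were lost on leaving out single pools, and the part of fibroblast RNA in them was not tested.

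Within cluster 3, 6 genes (0.0703%) were higher with antibiotics in young mice: Ptgds (3.02), Ccl24 (2.72), the complement regulator properdin, Cfp (2.63), Cbr2 (2.52), Adam33 (1.88) and Gas6 (1.35), with limma adjusted p from 0.0288 to 0.045. Ccl24 was 0.08, 0.1 and 0.0714 in control and 1.27, 0.267 and 1.57 in antibiotic pools. Cbr2, a carbonyl reductase, was 0.160, 0 and 0.357 in control and 1.04, 1.13 and 0.571 in antibiotic pools. Ccl24, Cbr2 and Gas6 are cluster 8 genes, and all 6 calls were lost when single pools were left out. In cluster 8, 1 gene (0.0111%), Vim (-3.66), was called.

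In aged BAM antibiotics gave 11 called genes (0.123%), 3 higher and 8 lower. The higher ones belong to the list of glucocorticoid-responsive genes. Klf9, a transcription factor induced by glucocorticoids, was 0.243, 0.150 and 0.194 in control and 0.697, 1.07 and 0.460 in antibiotic pools (log2 1.63, SE 0.32, limma adjusted p = 0.0293). Ddit4, an inhibitor of mTORC1, was 0.0811, 0.0750 and 0.113 in control and 0.394, 0.750 and 0.540 in antibiotic pools (2.10, limma adjusted p = 0.0238). The metallothionein gene Mt2 was 0.0811, 0.125 and 0.0323 in control and 0.576, 0.295 and 0.600 in antibiotic pools (2.07, limma adjusted p = 0.0296). Both are from the same limma fit.

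Over all genes tested in aged BAM the median was -0.09, 40.2% were positive and 0.123% were called. Of the 14 genes of the glucocorticoid list, 12 had a positive difference (median 0.70) and 3 were called. In cluster 3 alone it was also 12 of 14 (0.77, beside -0.02 over all genes). Fkbp5, the classic glucocorticoid target, differed by 1.00 and did not pass (limma adjusted p = 0.543). Klf9 in microglia read 0.0658 to 0.0842 in aged control and 0.126 to 0.229 in aged antibiotic pools, and Ddit4 0.164 to 0.372 and 0.535 to 1.04. Klf9 and Ddit4 are among the microglial genes that earlier work on these data had named, so their choice is not independent.

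Of the 8 lower genes, 3 encode receptors. Cx3cr1, the fractalkine receptor, was 11.9, 9.38 and 8.94 in control and 3.94, 4.16 and 6.30 in antibiotic pools (log2 -1.08, SE 0.20, limma adjusted p = 0.0238). Gpr34, a lysophosphatidylserine receptor, was 4.00, 3.00 and 4.11 in control and 1.00, 1.5 and 1.78 in antibiotic pools (-1.37, limma adjusted p = 0.0238). Ch25h, which makes the oxysterol precursor of the EBI2 ligand, was 0.514, 0.250 and 0.371 in control and 0.0606, 0 and 0.0800 in antibiotic pools (-2.21, limma adjusted p = 0.0296). Gpr183, the gene of EBI2 itself, was 2.65, 2.00 and 1.90 in control and 0.879, 1.05 and 1.18 in antibiotic pools (-1.04, limma adjusted p = 0.0245); these are limma values as well. Neither ligand-making enzyme nor receptor overlapped between the groups.

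Hspa5, the endoplasmic reticulum chaperone BiP, was 8.41, 7.20 and 7.47 in aged control and 3.76, 3.89 and 4.42 in aged antibiotic pools (log2 -0.93, limma adjusted p = 0.0192). The other lower genes were Basp1 (-1.42), Olfml3 (-1.34) and Dynll1 (-1.13), with limma adjusted p from 0.0192 to 0.0296. Hspa5 was also lower in aged than in young antibiotic pools (-0.87, limma adjusted p = 0.0222), a comparison that shares the aged antibiotic pools. Over all genes tested, 40.2% had a positive difference in aged antibiotic BAM against aged control BAM, with a median of -0.09. Of the 16 endoplasmic reticulum stress genes, 15 had a negative difference (median -0.51), and of the 27 interferon response genes 25 (median -0.31). All 38 ribosomal protein genes had a positive one (median 0.17). Of the 23 genes known to be induced by tissue dissociation, 20 had a negative difference (median -0.28) with none called, and their part in the result was not tested. Microglia read 7.81 to 10.5 for Hspa5 in aged control and 4.94 to 6.12 in aged antibiotic pools.

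Microglial genes moved with this result. The summed level of the 6 microglia markers in BAM was 20.5 to 34.5 in aged control and 10.9 to 18.4 in aged antibiotic pools, and P2ry12 read 3.81, 1.95 and 2.29 against 1.06, 1.32 and 1.56. Cx3cr1 (18.6 in microglia and 7.89 in BAM), Gpr34 (8.70 and 2.61) and Olfml3 (6.06 and 1.75) are themselves higher in microglia. The part of microglial RNA in the result was not tested. In cluster 3 alone the marker sums were 17.5 to 20.4 and 11.9 to 13.4, and no gene passed the test for antibiotics in aged mice (0 of 8537, 0.0% by limma, with 286 at an unadjusted p under 0.05). In cluster 8 alone 11 genes (0.122%) were lower, with Gpr34 (-2.02), Cx3cr1 (-1.67) and Btg2 (-1.21) among them. The median over all 8984 genes was itself -0.36 there, and the aged antibiotic pools held 6, 9 and 10 BAM of cluster 8. These calls were not checked by leaving out single pools.

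Every one of the 11 calls in aged BAM was lost in at least 4 of the 12 fits that left out 1 pool. These fits leave 2 pools in 1 group and so have less power; the direction was kept in each.

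Over both ages, 5 genes (0.0559%) differed with antibiotics: Ch25h (-1.76), Klf9 (1.20), Tnf (-1.02), Cfp (1.23) and Basp1 (-0.90), each at a limma adjusted p of 0.0381. Cfp was 0.0769 to 0.193 in young control and 0.278 to 0.515 in young antibiotic pools, and 0.135 to 0.250 and 0.420 to 0.515 in aged ones. Tnf, the inflammatory cytokine, was 0.667 to 0.860 and 0.293 to 0.545 in young mice, and 1.05 to 1.86 and 0.394 to 0.682 in aged mice. For Cfp, Tnf and Ch25h the arms did not overlap at either age. In cluster 3 Klf9 (2.21, limma adjusted p = 0.0216) and Cfp (1.99, limma adjusted p = 0.0308) were the 2 genes called by limma (0.0234%), and in cluster 8 none of 8984 was (0.0%; 559 at an unadjusted p under 0.05). All 5 calls in all BAM were lost when single pools were left out.

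**Figure D5:**
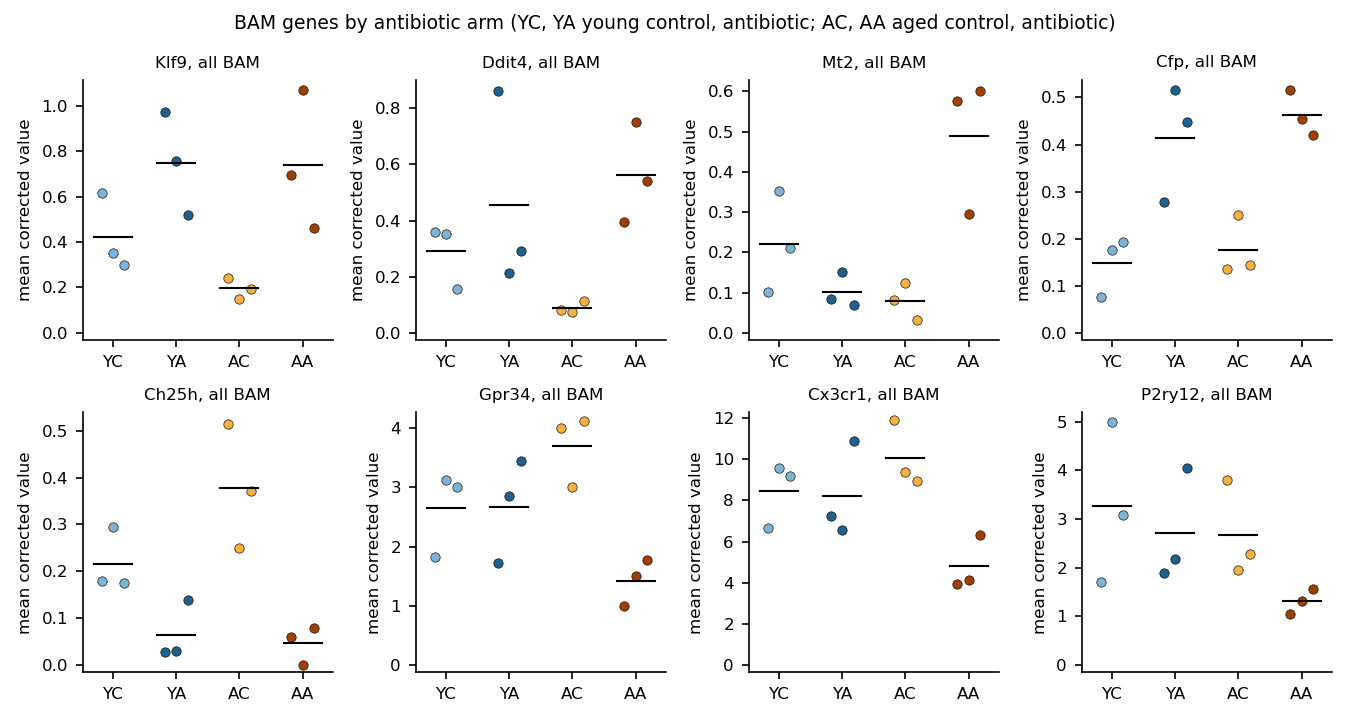
Each panel shows 1 gene in all BAM; points are pools (mean corrected value, linear axis) for young control (YC), young antibiotic (YA), aged control (AC) and aged antibiotic (AA) mice, and lines are group means. In aged mice Klf9, Ddit4 and Mt2 are higher and Ch25h, Gpr34 and Cx3cr1 lower with antibiotics, without overlap; Cfp is higher with antibiotics at both ages and P2ry12 moves with the microglial genes.

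The difference of the antibiotic effect between ages was tested directly. No gene passed in all BAM (0 of 8942, 0.0% by limma; 551 at an unadjusted p under 0.05; lowest limma adjusted p = 0.0882) or in cluster 3 (0 of 8537, 0.0%; 519 at an unadjusted p under 0.05), and 3 of 8984 (0.0334%) passed in cluster 8, namely Gem, Id2 and Btg2. Apart from these 3, the calls made at one age and not at the other are therefore not shown to differ between ages. The 3 calls rest on the few BAM of cluster 8, where the median over all genes was -0.33 for this contrast. They were not checked by leaving out single pools.

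On the surface of BAM, edgeR called no antibody for antibiotics at either age (0 of 34, 0.0% in each comparison, at most 1 at an unadjusted p under 0.05). DESeq2 called 0 as well. Age gave 2 calls of 34 (5.88%) in controls, 1 (2.94%) with antibiotics and 2 (5.88%) over both arms, all among CD335, CXCR4 and KLRG1, which had 0 tags in young BAM and 78, 19 and 18 in aged BAM. These 3 are not in the antibody panel the study lists. Other tools called more for age: DESeq2 4, 3 and 11 and limma on the centred log ratio 7, 6 and 17, in the same order. I-A/I-E differed by 0.47 over both arms (SE 0.18, edgeR adjusted p = 0.0905) and CD38 by -0.11 (edgeR adjusted p = 0.824).

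Whether BAM and microglia differ in their response was tested on the difference within pools. For none of 8310 genes did the difference change with age or antibiotics in any of the 7 contrasts (0.0% by limma), with 479 to 692 genes at an unadjusted p under 0.05. One antibody, CD11c, passed for age in controls (1 of 34, 2.94%). For BAM minus Ly6CLow, 11 of 8027 genes (0.137%) passed for age with antibiotics, 1 (0.0125%) over both arms and 0 (0.0%) in the other contrasts; none of these passed among cells of at least 2000 raw UMIs. The counts depended on the scale: at a pseudocount of 0.5 it was 56 and 117 of these genes for BAM minus Ly6CLow and 3 and 1 for BAM minus microglia (with antibiotics and over both arms), and with the mean of log values per cell 172 and 307 for BAM minus Ly6CLow. Genes too low in microglia did not enter the comparison with microglia, Cxcl13, Ednrb and Ccr2 among them. Whether those respond otherwise in BAM than in microglia was not tested. The age genes named above that did enter, such as Vcam1, Fgl2, S100a8 and S100a9, are not shown to respond otherwise than in microglia.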

How the data were processed

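Cells of 24 mice in 12 hashtagged pools were read by CITE-seq. Per the submitters' processing notes, Cell Ranger 3.0.2, Seurat 3.0.1 and mm10 were used. The RNA values the authors deposited are corrected expression, treated here as a score: their sum per cell equals the deposited SCTransform total in 100% of cells, and the raw total in 0.475%. The antibody tags are deposited by the authors as raw counts per cell for 34 antibodies, 31 of them in the listed panel. The authors had kept singlets only; no doublet caller was run. Of the metadata columns, 30 were not used.

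Each pool's RNA scores were averaged per cell type and tested with limma 3.58.1 (trended prior variance) on log2 of the mean plus 0.05, for genes with a mean of at least 0.05 and pools of at least 10 BAM, with 7 contrasts of age and antibiotics. Fold changes on this scale understate those of low genes. Tags and cell numbers were summed and tested with edgeR 4.0.16 (quasi-likelihood, TMM for tags). Adjustment was Benjamini-Hochberg at 0.05. Differences between cell types were tested within pools. Pools, merged from several mice, are the replicates. DESeq2 1.42.0 served as an alternative, R 4.3.3 and Python 3.11.15 were used, and the fits were checked on simulated data.

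Named genes were, per contrast, up to 8 called genes in each direction with the largest change and no overlap of pools, the 10 highest and 6 lowest genes against each other cell type, the members of 5 gene lists (BAM markers, BAM subset genes, scavenger and iron, MHC class II, microglia genes from earlier work), and called or listed antibodies. Genes outside this rule, and all fits within RNA clusters, were chosen after their values were seen. The members and the 33 lists were chosen with earlier results of these data known. Alternatives covered pseudocount, filter, weights, scaling, tool, cell subset, hashtag block and leaving out each pool. Some results are not reported here.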

Additional observations from a re-analysis of the deposited data

Results flagged for a closer look

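In 13 instances the change with age differed between BAM and another cell type by a direct test within pools. For age with antibiotics, 11 genes passed for BAM minus Ly6CLow, each at a limma adjusted p of 0.049. The secreted matrix protein gene Spp1, osteopontin, had the largest of these differences (-5.51). It was 0.0606, 0.0682 and 0.04 in aged antibiotic BAM, against 2.61, 0.242 and 0.276 in young antibiotic BAM. In Ly6CLow cells it was 0.667, 1.99 and 11.4 in aged and 0.465, 0.242 and 0.204 in young antibiotic pools. The matrix glycoprotein gene Sparc (-2.78) was 0.697, 0.932 and 1.76 in aged and 3.00, 2.91 and 5.83 in young antibiotic BAM, and higher with age in Ly6CLow cells. Cyr61 (-3.07), Ldhb (-2.76), Adgrg1 (-2.53), Syngr1 (-3.11), Serpine2 (-3.29), the cathepsin gene Ctsl (-2.20) and Gm20186 (-3.79) were of the same sign. Gm21188 (2.83) and Acp5 (2.80), the tartrate-resistant acid phosphatase gene, were of the opposite sign.

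Gm20186 was the one gene that also passed over both arms (-3.97, limma adjusted p = 0.00454). It was 0.121 to 0.788 in young and 1.93 to 9.46 in aged Ly6CLow cells and 0.0303 to 0.273 in BAM of all 12 pools, so the change lay in the Ly6CLow cells. Among cells of at least 2000 raw UMIs none of the 11 genes passed, and the difference of Gm20186 was -0.217 with antibiotics and -0.568 over both arms. Of the 634 Ly6CLow cells, 126 had fewer than 2000 raw UMIs. The part of shallow Ly6CLow cells in the result was not tested further.

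The CD11c tag passed for BAM minus microglia, age in controls (-1.38, SE 0.34, edgeR adjusted p = 0.0465). It gave 9.13, 17.6 and 10.5 tags per BAM in young and 1.19, 2.55 and 1.31 in aged control pools, and 2.72, 2.69 and 2.69 against 1.02, 0.881 and 1.00 per microglial cell. With the panel of 31 antibodies it did not pass. These tags per cell are raw and not scaled to depth. Median tags per BAM were 3058 to 3397 in young and 573 to 612 in aged control pools. In the fit of BAM alone, CD11c differed by -0.30 for age in controls and did not pass (SE 0.43, edgeR adjusted p = 0.703).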

How the results depend on the processing

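The counts of called genes rest on 3 pools per group and 17 to 62 BAM per pool, and most moved with the processing. Counts are given below for all BAM as reported (4 genes for age in controls, 7 for age with antibiotics, 13 for age over both arms, and 2, 11 and 5 for antibiotics in young mice, aged mice and both) and their causes were not tested beyond what each setting itself changes. Tag depth in the aged well limits small antibodies, and young and aged wells cannot be separated from age. The median over all genes tested was 0.01 for age in controls and -0.15 with antibiotics, so the medians of gene lists were read beside it. The hashtag numbers did not pair the pools: the correlation of same-numbered pools was -0.0431 to 0.083, and 1 of 6 numbers correlated best with itself. With the hashtag number as replicate block, age with antibiotics gave 12 genes in BAM, 0 (age with antibiotics) and 5 (both arms) in BAM minus Ly6CLow, 2 antibodies for age with antibiotics, and a share difference of -0.0136 for age with antibiotics, against 0.00; Lgals3bp over both arms (limma adjusted p = 0.0573) and S100a9 in controls (0.0589) missed the threshold. Under the block the other counts of age genes in BAM stayed within 1.5 times, at 3 in controls and 16 over both arms; antibiotic contrasts cannot be blocked, since arms do not share hashtags.

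At a pseudocount of 0.5, BAM gave 2 genes for age in controls, and 1, 7 and 0 for antibiotics in young mice, aged mice and both. Cluster 3 gave 10 for age with antibiotics and 3 for antibiotics in aged mice. BAM minus microglia gave 3 (age with antibiotics), 1 (age over both arms) and 1 (antibiotics in young), and BAM minus Ly6CLow 1, 56 and 117 for age in controls, with antibiotics and over both arms. The genes at least 2-fold apart in every pool were then 52 higher and 14 lower against microglia, and 24 and 18 against Ly6CLow. At a pseudocount of 0.01, BAM gave 2 for age with antibiotics and 0 for antibiotics in young mice and over both ages, and cluster 3 gave 5, 1 and 6 for age (controls, antibiotics, both arms) and 0 for antibiotics in young mice and over both ages. Without a filter on low values, BAM gave 3 for age with antibiotics and 1, 4 and 0 for antibiotics in young, aged and both. Cluster 3 then gave 10 and 1 for antibiotics in young and aged mice, BAM minus microglia 1 for age over both arms, and BAM minus Ly6CLow 1, 2 and 6 for age. A minimum mean of 0.2 left 0 for antibiotics over both ages. With the mean of log values per cell, BAM gave 14 (age with antibiotics), 25 (age over both arms), and 0, 7 and 1 for antibiotics in young, aged and both. Cluster 3 gave 6 for age with antibiotics and 1 and 1 for antibiotics in young mice and over both ages, BAM minus microglia 4 for age over both arms and 2 for the contrast of the antibiotic effect by age, and BAM minus Ly6CLow 172 and 307 for age with antibiotics and over both arms.

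With pools weighted by their cells, BAM gave 22 for age with antibiotics and 1 for antibiotics in young mice. Cluster 3 gave 18, 13 and 34 for age and 16 for antibiotics in aged mice, against 0 unweighted, and BAM minus Ly6CLow 1, 18 and 19 for age. Robust prior variance gave 16 for age with antibiotics and 0 and 9 for antibiotics in young mice and over both ages. Pools of at least 20 BAM gave 36 for age with antibiotics, 1 for antibiotics in young mice and 0 over both ages, and 0 for BAM minus Ly6CLow. Cells of at least 2000 raw UMIs gave 1 and 3 for antibiotics in young mice and over both ages, and 0 and 0 for BAM minus Ly6CLow (age with antibiotics and over both arms). Taking cluster 3 in place of all BAM gave 11, 2 and 22 for age and 6, 0 and 2 for antibiotics in young, aged and both. Taking cluster 8 gave 1, 3 and 3 for age, 1 and 0 for antibiotics in young mice and over both ages, 3 for the difference of the antibiotic effect, and turned AW112010 for age with antibiotics to -0.021. Clusters 3 and 8 together, without the remaining BAM, gave 4 for age with antibiotics and 1 for antibiotics in young mice.

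For antibodies in BAM, DESeq2 called 4, 3 and 11 for age (controls, antibiotics, both arms) and limma on the centred log ratio 7, 6 and 17, against 2, 1 and 2. Without a composition factor it was 2 for age with antibiotics, 1 for BAM minus microglia over both arms and 28 between the clusters. With the panel of 31, it was 0 for age in controls and 0 for BAM minus microglia. The centred log ratio left 2 antibodies at least 2-fold higher than in microglia, and the share of tags 2 higher and 5 lower; as a share, CD11c (-0.15), CD4 (-0.48), CD45 (-0.46), F4/80 (-0.37) and CD24 (-0.27), all at least 2-fold higher on average per cell, changed sign, as did every antibody with a smaller positive difference, NK1.1 (-0.73), PD-L1 (-0.77) and CD172a (-1.09) among them. The BAM share among cells other than microglia differed by -0.163, -0.742 and -0.453 for age (controls, antibiotics, both arms) and by -0.000701 for antibiotics over both ages, of opposite sign to the share of all cells.

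Leaving out 1 pool at a time gave, in BAM, 3 to 13 genes for age in controls, 1 to 36 with antibiotics, 6 to 24 over both arms, 0 to 3, 0 to 14 and 0 to 8 for antibiotics in young, aged and both, and 0 to 2 for their difference. Cluster 3 gave 4 to 19, 1 to 11 and 8 to 34 for age, 0 to 15, 0 to 3 and 0 to 6 for antibiotics, and 0 to 1 for their difference. The pools behind the extremes for all BAM were young control 3 (13 for age in controls), young control 2 (36) and young antibiotic 5 and aged antibiotic 4 (1 each) for age with antibiotics, and young antibiotic 4 (24) and aged antibiotic 5 (6) for age over both arms. For antibiotics in aged mice, the count was 0 without aged control 1 or 3 or aged antibiotic 5, and over both ages it was 8 without young antibiotic 6. Antibodies in BAM gave 1 to 5, 1 to 2 and 1 to 5 for age. BAM minus Ly6CLow gave 0 to 14 for age with antibiotics, 1 to 3 over both arms and 0 to 1 for antibiotics in young mice; BAM minus microglia gave 0 to 1 for both age with antibiotics and antibiotics in young mice. Antibodies of BAM minus microglia gave 0 to 1 for age in controls, 0 to 1 with antibiotics, 0 to 3 over both arms and 0 to 1 for antibiotics in aged mice. The share difference ran from -0.239 to 0.148 for age with antibiotics, from -0.0370 to 0.254 for antibiotics over both ages and from -0.325 to 0.0627 for antibiotics in aged mice. It changed sign without young antibiotic 5 (-0.0474), young antibiotic 6 (-0.0582) or aged antibiotic 6 (-0.239) for age with antibiotics, without young control 2 (-0.0187) or aged antibiotic 6 (-0.0370) over both ages, and without aged antibiotic 5 (0.0627) in aged mice.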

Other observations

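The clusters of BAM also differed in cytokine, growth factor and transcription factor genes that the account above does not name. Values are means over the 12 pools, given as a description because the clusters were built on the same RNA. The interleukin gene Il1b was 7.33 in cluster 3 and 1.51 in cluster 8, higher in cluster 3 in 12 of 12 pools, as were the receptor tyrosine kinase gene Axl (1.84 and 0.627) and the glycoprotein gene Cd52 (6.87 and 1.38). Gas6, which encodes the ligand of Axl, was 1.43 in cluster 3 and 4.56 in cluster 8 and thus went the other way from its receptor. The insulin-like growth factor gene Igf1 (0.363 and 1.27), the scavenger receptor gene Stab1 (2.34 and 7.69) and the transcription factor genes Maf (3.42 and 7.82) and Klf4 (4.72 and 10.0) were also higher in cluster 8 in all 12 pools. The chemokines were split: Ccl2 was 3.65 and 17.2, with 1 of 12 pools higher in cluster 3, whereas Ccl3 was level (13.8 and 13.8) and Cxcl2 was 22 and 14.5, higher in cluster 3 in 11 of 12 pools.

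Of the 19 scavenger and iron genes that passed the filter, 12 had a negative age difference over both arms (median -0.13, beside -0.07 over all genes) and 1 was called lower, while 14 had a positive antibiotic difference over both ages (median 0.15, beside -0.01), with none called. The BAM subset list had 11 positive of 19 with age over both arms (median 0.05), with 1 called lower. Over all genes tested for age over both arms, the median was -0.07, 39.7% were positive and 0.145% were called. The list of microglial genes from earlier work on these data had 10 positive and 9 negative of 19 for antibiotics in aged mice (median 0.12, beside -0.09 over all genes), with 2 called higher and 1 lower, where 0.123% of all genes tested were called. That list was drawn from results of these samples and is not independent evidence. The 12 senescence and inflammation genes that passed were all negative for antibiotics over both ages (median -0.15, beside -0.01 and 48.7% positive over all genes), with 1 called, where 0.0559% of all genes tested were called. In aged mice alone 10 of the 12 were negative (median -0.58, beside -0.09 and 40.2% positive), with none called. For age, 10 of the 12 were positive over both arms (median 0.26, beside -0.07), with none called; the comparisons share pools. Disease-associated microglia genes were even for antibiotics over both ages (9 positive, 9 negative, median -0.01).

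Choroid plexus transcripts were high in the cluster 8 BAM of single pools. The summed choroid plexus markers reached 103 in a young antibiotic pool and 391 in an aged antibiotic pool. The lowest antibiotic pools of cluster 8 had 1.67 (young) and 2.44 (aged), and its control pools at most 3. No pool of cluster 3 was above 2.85. Cluster 8 held only 6, 9 and 10 BAM in the aged antibiotic pools, so few cells can set such a mean. Of the 5 markers measured, 1 passed the filter on mean level in all BAM. In microglia the highest sum was 12.9. The CD24 tag, which marks epithelial and neural cells among others, was also uneven in cluster 8. It ran from 43.2 to 2801 tags per cell in the young pools (median 370) and did not differ between the clusters (edgeR adjusted p = 0.624). Its highest young and aged values were in control pools, young control 2 (5 cluster 8 BAM) and aged control 1 (43.7 tags). Choroid plexus sums there were at most 3.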
